A study of Homo sapiens with 30 samples.

Results

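The loci of 5 receptors of the tumour necrosis factor (TNF) family, TNFRSF1A, TNFRSF1B, CD40, FAS and TNFRSF10B, were examined for open chromatin in 30 ATAC-seq libraries of human endothelial cell lines. A locus was the 50 kb on each side of the gene start in hg19. The 30 peak lists held 1897 summits there, and the stronger of these fell into 54 regions of 501 bp, of 107672 regions in the whole series. TNFRSF1A had 14 regions, TNFRSF10B 13, TNFRSF1B and FAS 11 each, and CD40 5. ATAC-seq cuts accessible DNA with the transposase Tn5, so a peak marks open chromatin and not expression of the gene.

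Eahy926 is an endothelial hybrid line, grown without added vascular endothelial growth factor (VEGF). TeloHAEC is an aortic endothelial line immortalised with telomerase, grown in medium that contains VEGF. Both were labelled as parental in genotype, and each line is a single cell line. Each line had 5 groups of 3 biological replicates: untreated cells prepared on day 0, untreated cells prepared on day 1, and 3 treatments prepared on day 1. The treatments were interleukin 1 beta (IL1b) or TNF alpha (TNFa), each at 10 ng/ml for 24 h, and a change of VEGF, also for 24 h. VEGF was added to Eahy926 and withheld from TeloHAEC. The day is the day of library preparation, and all treated libraries belong to day 1.

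TNF family receptors sit in the cell membrane and assemble adaptor proteins when a ligand binds. TNFRSF1A and TNFRSF1B are the receptors of TNF itself. TNFRSF1A carries a death domain and signals to NF-kB or to cell death, whereas TNFRSF1B binds TRAF adaptors directly. CD40 is the receptor of CD40 ligand and in endothelium is known for its part in the response to activated T cells and platelets. FAS and TNFRSF10B are death receptors, the receptors of FAS ligand and of TRAIL, and recruit FADD and caspase 8.

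RefSeq promoter sequences (GRCh38.p14) were at hand for 3 of the 5 genes, TNFRSF1A, TNFRSF1B and FAS. The 250 bases before the start are shown for the TNF receptor genes TNFRSF1A and TNFRSF1B, 5′ to 3′ on the gene's strand. They were chosen because some libraries had a strong peak at the TNFRSF1A start, 10 of 15 in Eahy926 and 2 of 15 in TeloHAEC. At the TNFRSF1B start 0 of 15 had one in each line. The FAS entries overlap other transcripts and are not shown. Capitals mark matches on either strand to GGGCGG (SP1), TTCCGG (ETS), TGANTCA (AP-1), the NF-kB consensus or the IRF element.
TNFRSF1A, chr12:6342077-6342326, minus strand: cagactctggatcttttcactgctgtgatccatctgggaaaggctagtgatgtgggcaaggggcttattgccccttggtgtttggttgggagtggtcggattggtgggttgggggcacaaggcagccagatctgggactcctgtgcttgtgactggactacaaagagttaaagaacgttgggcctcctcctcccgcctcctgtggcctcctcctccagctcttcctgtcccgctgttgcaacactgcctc
TNFRSF1B, chr1:12166741-12166990, plus strand: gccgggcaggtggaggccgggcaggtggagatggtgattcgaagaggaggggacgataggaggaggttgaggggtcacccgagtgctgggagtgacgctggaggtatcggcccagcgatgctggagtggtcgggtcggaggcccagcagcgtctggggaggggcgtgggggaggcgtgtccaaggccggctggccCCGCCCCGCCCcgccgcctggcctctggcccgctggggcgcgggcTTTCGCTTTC
The TNFRSF1A sequence held none of these motifs. TNFRSF1B held 2 overlapping SP1 matches and 1 IRF match, and its GC content was 72.4% against 56.8% for TNFRSF1A. Among 35116 RefSeq promoters of the same length, 42.6% held the SP1 motif, 14.5% ETS, 6.57% AP-1, 9.96% NF-kB and 3.02% IRF. A match describes letters only and shows no binding.

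Peaks were compared by their place in a library's list, ordered by the authors' p-value. The rank score is log2 of 49775 over the place, so a unit of score is a 2-fold better place, and a region without a peak among the 49774 best of a library scores 0. A strong peak is one of the 45000 best of its library. Kept tags ranged from 3577273 to 10524271 in Eahy926 and from 3598755 to 11404955 in TeloHAEC, and the lists held 49774 to 85525 and 67804 to 115794 autosomal peaks, so every list was shortened to 49774. Of the endothelial marker genes, KDR had a strong peak within 1 kb of its start in 15 of 15 libraries of each line, and TIE1 in 15 Eahy926 and 14 TeloHAEC libraries. CDH5 had one in 13 and 14, and TEK in 4 and 2. EPCAM, CDH1, PTPRC, SPI1 and MYH11, markers of epithelium, blood and smooth muscle, had none in either line, whereas the smooth muscle actin gene ACTA2 had one in 0 of 15 Eahy926 and 12 of 15 TeloHAEC libraries at the start of its shorter transcripts. Its longer transcripts start beside FAS, where both lines had strong peaks.

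The receptor genes differed in how open their own starts were. FAS had a strong peak within 1 kb of its start in 14 of 15 Eahy926 and 15 of 15 TeloHAEC libraries, and TNFRSF10B in 12 of 15 of each line. CD40 had one in 12 Eahy926 and 8 TeloHAEC libraries, and TNFRSF1A in 10 and 2. TNFRSF1B, the gene with the GC-rich promoter shown above, had no strong peak at its start in any of the 30 libraries. A peak of any strength was listed there in 0 of 15 Eahy926 and 12 of 15 TeloHAEC libraries, and the TeloHAEC lists were longer. The start regions were weak where present: the median score at TNFRSF10B was 1.13 in Eahy926 and 0.62 in TeloHAEC, and at CD40 0.87 and 0.21.

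The best places lay away from the starts of the 5 receptor genes. At TNFRSF1A the leading region was 42.0 kb upstream (chr12:6493043-6493543), just ahead of LTBR, the lymphotoxin beta receptor gene, with a strong peak in all 30 libraries and a median score of 3.06 in Eahy926 and 3.79 in TeloHAEC. A region inside TNFRSF1A, 5.4 kb downstream of its start (chr12:6445673-6446173), had medians of 3.40 and 2.39. At TNFRSF1B it was the region 5.0 kb upstream (chr1:12221799-12222299, between genes), with medians of 3.26 and 3.58. At TNFRSF10B it lay 19.1 kb downstream, within the gene (chr8:22907361-22907861), with medians of 2.87 and 5.45. At CD40 it lay 28.6 kb upstream (chr20:44718066-44718566), with medians of 2.56 and 2.36. That region is inside NCOA5, a nuclear receptor coactivator gene, and within 1 kb of the start of NCOA5. FAS had no region of this kind: its best mean place, 30052, belonged to the region 13.0 kb downstream, within the gene (chr10:90763037-90763537), which was open in TeloHAEC. The heat map of rank scores shows these bands across all libraries.

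**Figure D1:**
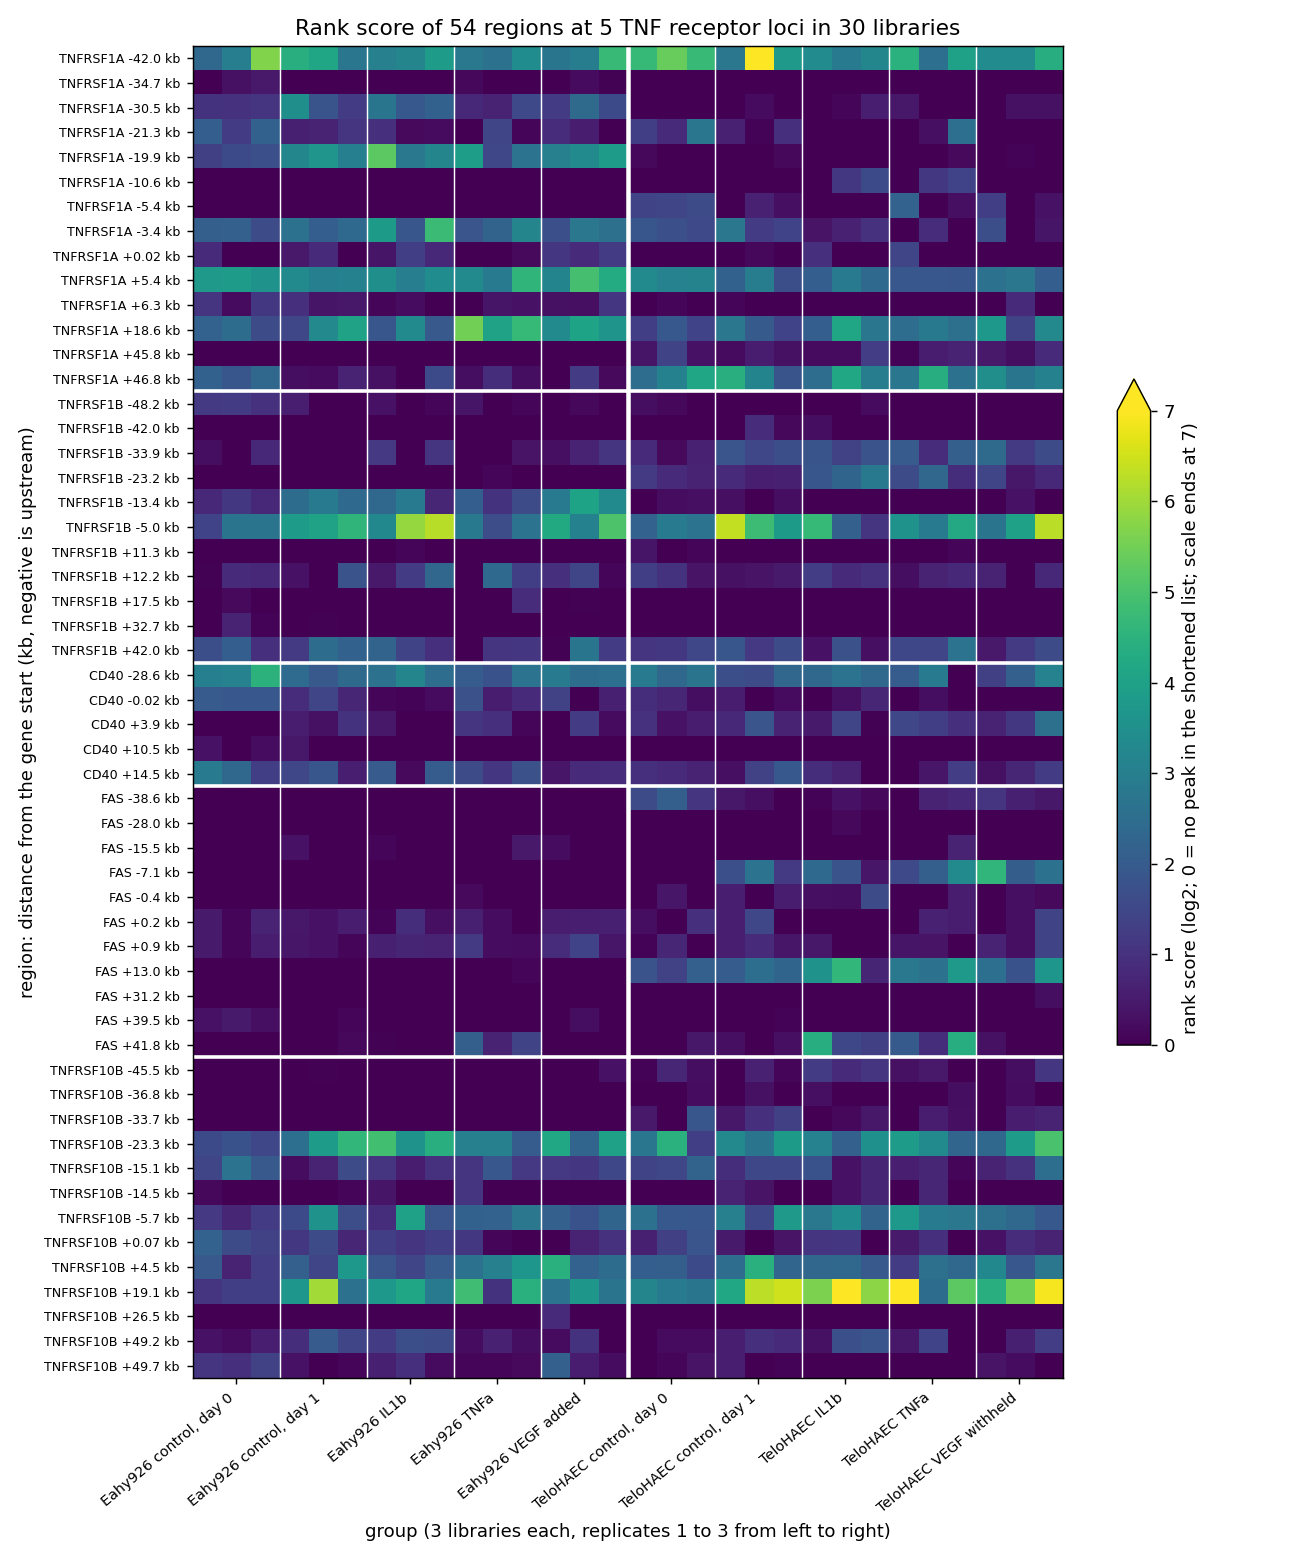
Rank score (log2, colour; darkest is 0, no peak in the shortened list) of the 54 regions (rows, by distance from the gene start in kb) in the 30 libraries (columns, in groups of 3; a thick line separates the lines). Bands such as TNFRSF1B 5.0 kb upstream run across both lines. FAS 13.0 kb downstream scores at least 0.73 in the 15 TeloHAEC libraries and at most 0.10 in Eahy926.

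The lines were compared in the 12 untreated libraries. A region was tested when at least 3 of these had a strong peak, so one open in a single line entered through that line. Of the 54 regions 43 were tested, and 16 differed at an adjusted p under 0.05 (limma), 10 higher and 6 lower in TeloHAEC. That is 37.2% of those tested, against 37.7% of all regions tested in the series, so the share is near the background. By direction the series had 19.6% higher and 18.1% lower. The median change, TeloHAEC minus Eahy926, was 0.09 in these regions and -0.08 over all regions. Changes called went both ways at TNFRSF1A (3 higher, 3 lower) and TNFRSF1B (2 and 2), were all higher at FAS (3) and TNFRSF10B (2), and were 1 lower at CD40.

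At TNFRSF1A, regions inside the neighbouring SCNN1A, a subunit gene of the epithelial sodium channel, gave the clearest contrast. The region 19.9 kb upstream (chr12:6470894-6471394) scored 1.33, 1.56 and 1.71 in untreated Eahy926 of day 0 and 3.22, 3.64 and 3.03 on day 1. In untreated TeloHAEC it scored 0.16, 0 and 0 on day 0 and 0, 0 and 0.16 on day 1. Peaks of any strength were listed there in 14 of 15 TeloHAEC libraries, most of them too weak for the shortened lists. The lines did not overlap in these libraries or in all 30, and TeloHAEC was lower by a change of -2.36 ± 0.33 (SE, adjusted p = 4.21e-05). The region 30.5 kb upstream (chr12:6481563-6482063) had a strong peak in 6 of 6 untreated Eahy926 libraries and 1 of 6 TeloHAEC libraries, a change of -1.57 ± 0.34 (adjusted p = 0.00165). Here too a peak of any strength was listed in 14 of 15 TeloHAEC libraries. Another SCNN1A region, 5.4 kb upstream (chr12:6456417-6456917), went the other way: it had no peak in untreated Eahy926 and scored 1.45, 1.46 and 1.61 on day 0 and 0, 0.64 and 0.28 on day 1 in TeloHAEC (change 0.91 ± 0.22, adjusted p = 0.00461). Downstream, the region at 46.8 kb (chr12:6404196-6404696, between genes) was higher in TeloHAEC by 1.92 ± 0.46 (adjusted p = 0.00362). On day 0 alone that change was 1.10 (adjusted p = 0.105), and on day 1 alone 2.74 (adjusted p = 0.0132). The start region of TNFRSF1A itself (chr12:6451013-6451513) had a strong peak in 3 of the untreated Eahy926 libraries with scores up to 0.86, and in 0 of the untreated TeloHAEC libraries. Its change of -0.34 ± 0.16 did not pass the test (adjusted p = 0.0985). The region 6.3 kb downstream, inside TNFRSF1A (chr12:6444738-6445238), was lower in TeloHAEC by a change of -0.67 ± 0.19 (limma, adjusted p = 0.00986). Strong peaks lay there in 6 of 6 untreated Eahy926 and 0 of 6 TeloHAEC libraries. The region 45.8 kb downstream, beside that at 46.8 kb, was higher by 0.54 ± 0.18 (limma, adjusted p = 0.0229). Neither call held on day 1 alone, nor the latter on day 0 alone.

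At TNFRSF1B, a region 13.4 kb upstream (chr1:12213378-12213878, between genes) was open in Eahy926. It scored 0.78, 1.12 and 0.77 on day 0 and 2.46, 2.90 and 2.40 on day 1 in Eahy926, and 0, 0.23, 0.28, 0.27, 0 and 0.27 in TeloHAEC. The lines did not overlap, and the change was -1.56 ± 0.32 (adjusted p = 0.00103). Peaks of any strength were listed there in 14 of 15 TeloHAEC libraries, so the region was weak in that line and not absent. The region 23.2 kb upstream (chr1:12203575-12204075) lies within TNFRSF8, the gene of the receptor CD30, and did the opposite. It scored 0 in the 6 untreated Eahy926 libraries, where any listed peak was too weak for the shortened lists, and 1.20, 0.86, 0.68, 0.87, 0.59 and 0.61 in TeloHAEC (change 0.80 ± 0.17, adjusted p = 0.00146). Of the other TNFRSF8 regions, that at 33.9 kb (chr1:12192891-12193391) was higher in TeloHAEC by 0.93 ± 0.28 (adjusted p = 0.0153), with 0.20 on day 0 alone and 1.67 on day 1 alone. That at 48.2 kb (chr1:12178590-12179090) was lower by a change of -0.60 ± 0.19 (adjusted p = 0.0186). On day 0 alone it was also lower (adjusted p = 0.0073), whereas on day 1 it scored 0.58, 0 and 0 in Eahy926 and 0 in each TeloHAEC library.

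The CD40 start region (chr20:44746635-44747135) ranked lower in TeloHAEC. It scored 2.02, 1.91 and 1.90 on day 0 and 0.88, 1.46 and 0.75 on day 1 in Eahy926, and 0.90, 0.77, 0.25, 0.53, 0 and 0.21 in TeloHAEC. The lowest Eahy926 values overlapped the highest of TeloHAEC, and the change was -1.04 ± 0.27 (adjusted p = 0.00643). Day 1 alone gave -0.78 (adjusted p = 0.0753).

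At FAS all 3 regions that differed scored 0 in every untreated Eahy926 library. The region 13.0 kb downstream scored 0 in each of its 6 untreated Eahy926 libraries, and 1.78, 1.39, 2.13, 2.04, 2.53 and 2.25 in TeloHAEC (change 2.02 ± 0.27, adjusted p = 2.23e-05). Over all 30 libraries the highest Eahy926 score there was 0.10 and the lowest TeloHAEC score 0.73. The region 38.6 kb upstream (chr10:90711453-90711953) lies within 1 kb of the start of the shorter ACTA2 transcripts, and is the peak counted for that marker above. It scored 1.61, 2.11 and 1.06 on day 0 and 0.45, 0.30 and 0 on day 1 in TeloHAEC (change 0.92 ± 0.25, adjusted p = 0.0084). MYH11, the other smooth muscle marker, had no strong peak in either line. The region 7.1 kb upstream (chr10:90742904-90743404), within the longer ACTA2 transcripts, scored 1.70, 2.68 and 1.18 in TeloHAEC of day 1 and 0 in the 3 libraries of day 0. Its change was 0.93 ± 0.30 (adjusted p = 0.0227), and 1.85 on day 1 alone. The region had strong peaks in 3 of 6 untreated TeloHAEC and 0 of 6 Eahy926 libraries. It was therefore tested only through TeloHAEC of day 1, where it was high. Weaker listed peaks brought it to 15 of 15 TeloHAEC libraries, against 0 of 15 of Eahy926. Without Eahy926 day 1 replicate 1, 2 or 3 its adjusted p was 0.0556, 0.0547 or 0.0554.

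At TNFRSF10B the leading region, 19.1 kb downstream, scored 1.05, 1.29 and 1.30 on day 0 and 3.67, 6.04 and 2.62 on day 1 in Eahy926. In TeloHAEC it scored 3.19, 2.89 and 2.73 on day 0 and 4.18, 6.29 and 6.51 on day 1, so the lines did not overlap on day 0 and did on day 1. The change was 1.64 ± 0.56 (adjusted p = 0.0282). The call was lost in 10 of 24 alternatives, with adjusted p up to 0.606, and day 1 alone gave 1.55 (adjusted p = 0.31). It was lost without any 1 of 5 libraries, Eahy926 day 0 replicate 1, Eahy926 day 1 replicates 1 and 3, TeloHAEC day 0 replicate 1 and TeloHAEC day 1 replicate 3, with adjusted p between 0.0512 and 0.0741. The region 33.7 kb upstream (chr8:22960126-22960626) lies over the start of TNFRSF10C, a decoy receptor of TRAIL without a death domain. It had no listed peak of any strength in the 15 Eahy926 libraries and a strong peak in 5 of 6 untreated TeloHAEC libraries (change 0.85 ± 0.25, adjusted p = 0.0144).

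**Figure D2:**
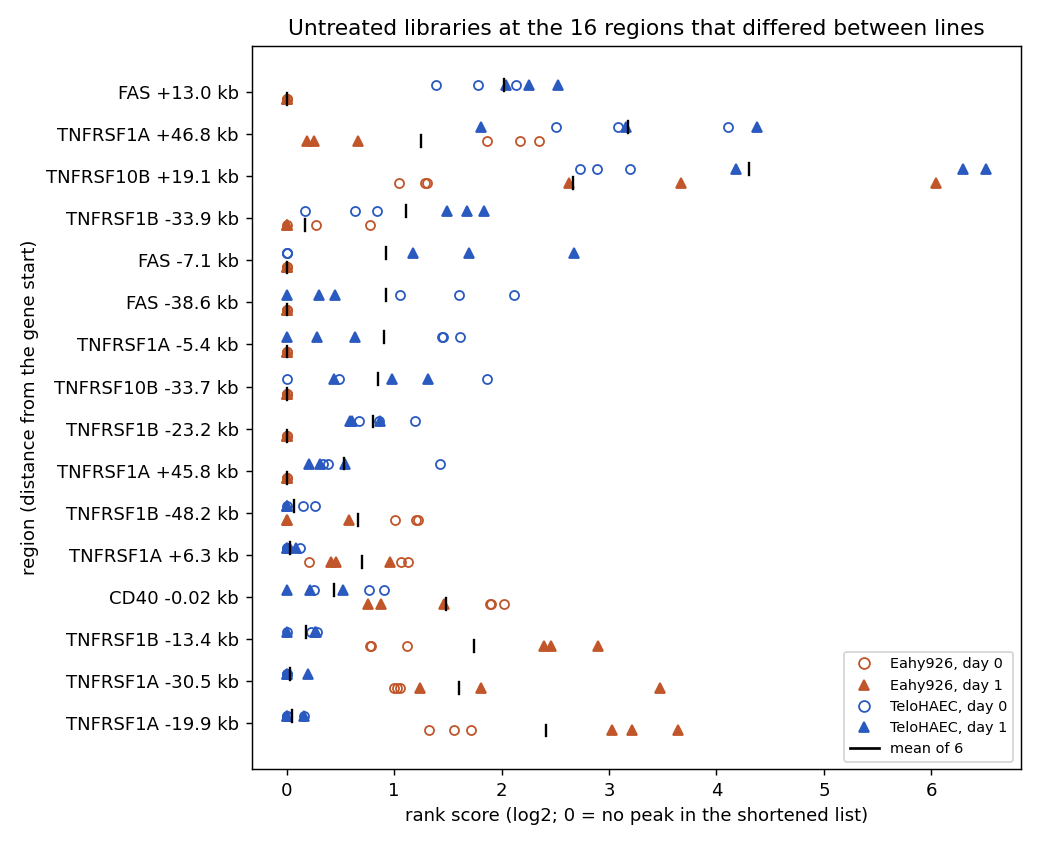
Rank score (log2, horizontal axis) of the 12 untreated libraries at the 16 regions that differed between the lines; each point is a library, open circles are day 0, filled triangles day 1, and black ticks mark the mean of 6. FAS 13.0 kb downstream and TNFRSF1A 19.9 kb upstream separate the lines on both days, whereas FAS 7.1 kb upstream is above 0 only in TeloHAEC of day 1.

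Strong peaks were also counted per locus, in the same untreated libraries, where the smallest exact permutation p possible is 0.005. Untreated TeloHAEC had 4.5 ± 1.05 strong peaks at FAS (SD, n = 6) and Eahy926 2.33 ± 0.82, a difference of 2.17 (exact permutation test within days, two-sided, p = 0.015, adjusted over 5 loci p = 0.0375). The FAS call was lost with the order by fold enrichment (exact permutation, adjusted p = 0.163), within 25 kb (adjusted p = 0.075) and over the whole lists (adjusted p = 0.1). At TNFRSF1A TeloHAEC had 8.17 ± 0.75 and Eahy926 9.83 ± 0.41, a difference of -1.67 (exact permutation p = 0.01, adjusted p = 0.0375). At TNFRSF1B the difference was 1.33 (exact permutation p = 0.05, adjusted p = 0.0833), at CD40 -0.33 and at TNFRSF10B 0.50 (both adjusted p = 0.66). Over the whole deposited lists TNFRSF1A had 1.83 more peaks in TeloHAEC (exact permutation, adjusted p = 0.381), so its direction rests on the shortened lists.

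Several of these regions differed between the preparation days in untreated cells. Anything else that differed between those sets of libraries cannot be told apart from the day. In Eahy926 8 of 31 tested regions differed between days, 5 higher and 3 lower on day 1, where 17.6% of all regions tested did (8.12% higher, 9.47% lower). The largest was TNFRSF10B 19.1 kb downstream, higher on day 1 by 2.90 ± 0.73 (adjusted p = 0.0228). TNFRSF10B 23.3 kb upstream (chr8:22949777-22950277, between genes) was higher by 2.08 ± 0.56 (adjusted p = 0.0287), and TNFRSF1B 5.0 kb upstream by 1.89 ± 0.55 (adjusted p = 0.0365). TNFRSF1A 46.8 kb downstream was lower on day 1 by a change of -1.76 ± 0.37 (adjusted p = 0.0132). In TeloHAEC 2 of 34 tested regions differed, against 11.6% of all regions tested (4.98% higher, 6.59% lower). Both were at FAS: 7.1 kb upstream was higher on day 1 by 1.85 ± 0.43 (adjusted p = 0.0218), and 38.6 kb upstream changed by -1.34 ± 0.40 (adjusted p = 0.0455). The former had strong peaks in 3 of 3 libraries of day 1 and 0 of 3 of day 0, so it was tested only through day 1. Only 3 libraries stood on each side, and without Eahy926 day 0 replicates 1, 2 or 3 or day 1 replicate 3 the Eahy926 count was 1, 2, 2 and 5. Leaving out any library of TeloHAEC gave 0 or 1.

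Treatments were compared with the untreated cells of day 1, 3 libraries against 3, and IL1b, TNFa and VEGF shared those controls. Across the 6 comparisons of a treatment with its controls, 1 region at the 5 loci was called: FAS 41.8 kb downstream, beyond the end of FAS and between genes (chr10:90791876-90792376), in Eahy926 given TNFa. It scored 2.12, 0.68 and 1.44 with TNFa and 0, 0 and 0.15 in the controls. With IL1b the scores were 0.04, 0 and 0, with VEGF added 0, 0 and 0, and in untreated Eahy926 of day 0 also 0, 0 and 0. Peaks of any strength were listed there in 3 of 3 controls of day 1 and 2 of 3 libraries with IL1b. With VEGF added they were in 1 of 3, and in untreated cells of day 0 in 1 of 3, so a score of 0 does not mean that no peak was found. Each TNFa library scored above every other library of Eahy926 at this region. The change with TNFa was 1.36 ± 0.31 (SE, limma, adjusted p = 0.0474), 1 of 32 tested regions, where 0.267% of all regions tested were called. IL1b minus TNFa in Eahy926 was -1.40 ± 0.31 (adjusted p = 0.0376), also 1 of 32, against 0.316% of all regions tested. Strong peaks lay there in 3 libraries with TNFa, 1 control of day 1, 0 with IL1b and 0 with VEGF added. The region was therefore tested in Eahy926 only through the TNFa libraries, where it was high. With no filter it was called neither for TNFa nor for IL1b minus TNFa. The call with TNFa sat close to the threshold, and it was lost in 13 of 15 alternatives, with adjusted p up to 0.442, while the change stayed above 0 in each. Without Eahy926 day 1 control replicates 1, 2 or 3 the adjusted p was 0.203, 0.205 and 0.156, and without TNFa replicates 1 or 3 it was 0.11 and 0.0767.

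The same FAS region was also high in TeloHAEC given either cytokine, without passing the test. It scored 4.35, 1.51 and 1.32 with IL1b and 1.99, 0.91 and 4.35 with TNFa. Its controls of day 1 scored 0.28, 0 and 0.29, those of day 0 0, 0 and 0.45, and the libraries with VEGF withheld 0.32, 0 and 0. Peaks of any strength were listed there in 3 of 3 controls of day 1, 2 of 3 of day 0 and 3 of 3 libraries with VEGF withheld. The change was 2.20 ± 0.75 with IL1b (adjusted p = 0.254) and 2.23 ± 0.75 with TNFa (adjusted p = 0.519), and the spread among treated replicates was large. The difference of the IL1b response between the lines, TeloHAEC minus Eahy926, was 2.24 ± 0.91 (adjusted p = 0.479), and that of the TNFa response 0.87 ± 0.91 (adjusted p = 0.881). A difference of response between the lines was therefore not shown. IL1b minus TNFa in TeloHAEC was -0.02 ± 0.75 there (adjusted p = 1).

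**Figure D3:**
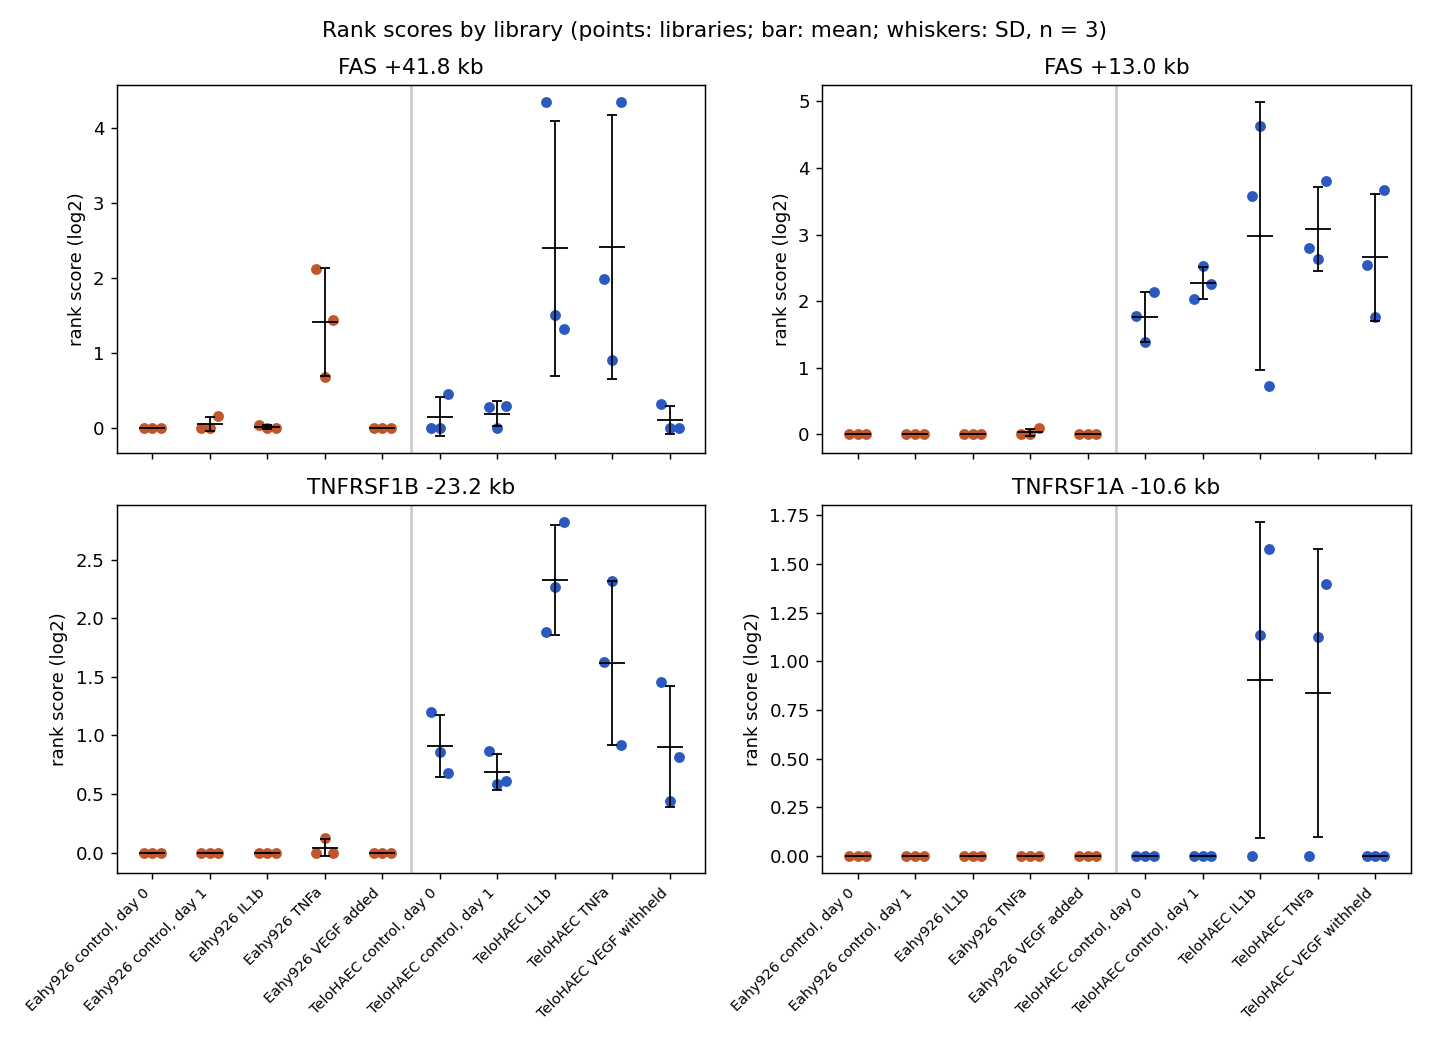
Rank score (log2) by library at 4 regions in the 10 groups; points are libraries (orange Eahy926, blue TeloHAEC), the bar is the mean and whiskers the SD (n = 3). At FAS 41.8 kb downstream the 3 TNFa libraries of Eahy926 and the cytokine libraries of TeloHAEC sit above their controls, whereas FAS 13.0 kb downstream separates the lines in every group.

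In TeloHAEC given IL1b 0 of 39 tested regions were called, against 0.334% of all regions tested. At an unadjusted p under 0.05 limma had 7 of 39, against 9.92% of all. TNFRSF1B 23.2 kb upstream, the TNFRSF8 region described above, scored 1.89, 2.27 and 2.82 with IL1b and 0.87, 0.59 and 0.61 in controls. The change was 1.64 ± 0.57 (adjusted p = 0.266). With TNFa the same region scored 1.62, 2.32 and 0.92 (change 0.93 ± 0.57, adjusted p = 0.711). TNFRSF1A 10.6 kb upstream (chr12:6461612-6462112, within SCNN1A) scored 0, 1.13 and 1.58 with IL1b and 0, 1.12 and 1.39 with TNFa. It scored 0 in the other 24 libraries. Peaks of any strength were listed there in 12 of 15 TeloHAEC libraries, with 3 of 3 controls of day 1 and 2 of 3 of day 0 among them. Strong peaks lay in 2 libraries with IL1b, 2 with TNFa and 0 controls, so the region was tested only through the cytokine libraries. Its change with IL1b was 0.90 ± 0.38 (adjusted p = 0.399). TNFRSF10B 45.5 kb upstream (chr8:22971894-22972394, within TNFRSF10C) changed by 0.80 ± 0.36 (adjusted p = 0.441), and CD40 14.5 kb downstream (chr20:44761185-44761685, between genes) by -0.66 ± 0.49 (adjusted p = 0.732).

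In TeloHAEC given TNFa 0 of 39 tested regions were called, against 0.00341% of all regions tested, and 3 of 39 had an unadjusted p under 0.05, against 7.76% of all. TNFRSF1A 3.4 kb upstream (chr12:6454460-6454960, between genes) scored 0, 0.88 and 0 with TNFa and 2.77, 1.24 and 1.42 in controls. The change was -1.52 ± 0.53 (adjusted p = 0.519). With IL1b it scored 0.36, 0.64 and 1.01, and with VEGF withheld 1.68, 0 and 0.39. With VEGF withheld 0 of 39 were called, against 0% of all regions tested, and 1 of 39 had an unadjusted p under 0.05, against 5.03%. The smallest p was at that TNFRSF1A region, at -1.12 ± 0.53 (adjusted p = 0.987).

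In Eahy926 given IL1b 0 of 32 tested regions were called, against 0.00353% of all regions tested, and 1 of 32 had an unadjusted p under 0.05, against 4.2%. That was TNFRSF1B 33.9 kb upstream, which scored 1.17, 0 and 1.07 with IL1b and 0 in each control (change 0.75 ± 0.32, adjusted p = 1). The CD40 start region scored 0.09, 0.07 and 0.21 with IL1b, below each control (0.88, 1.46 and 0.75), with a change of -0.91 ± 0.44 (adjusted p = 1). It scored 1.73, 0.53 and 0.87 with TNFa. With TNFa 4 of 32 had an unadjusted p under 0.05, the FAS region included, against 8.77%. TNFRSF1B 5.0 kb upstream scored 2.83, 1.67 and 2.67 with TNFa, below each control (3.84, 4.04 and 4.57), with a change of -1.76 ± 0.80 (adjusted p = 0.527). It scored 3.26, 5.89 and 6.25 with IL1b, so that IL1b minus TNFa was 2.74 ± 0.80 (adjusted p = 0.198). TNFRSF1A 18.6 kb downstream (chr12:6432389-6432889, within PLEKHG6) ran the other way, with 5.50, 4.03 and 4.70 with TNFa and 1.87, 3.33 and 1.95 with IL1b, and IL1b minus TNFa was -2.36 ± 0.73 (adjusted p = 0.25). With VEGF added 0 of 32 were called, against 0% of all, and 3 of 32 had an unadjusted p under 0.05, against 5.08%.

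IL1b minus TNFa in TeloHAEC gave 0 of 39 called, against 0.104% of all regions tested, with 2 of 39 at an unadjusted p under 0.05, against 7.49% of all. In Eahy926 that contrast had 8 of 32 at an unadjusted p under 0.05, against 8.59%. The IL1b response of TeloHAEC minus that of Eahy926 gave 0 of 44 called, against 0.258%, with 8 of 44 at an unadjusted p under 0.05, against 8.07% of all. For TNFa it was 0 of 44, against 0.0518%, with 2 of 44, against 7.25%. A p above the threshold with 3 libraries a group does not show that a receptor locus was unaffected.

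**Figure D4:**
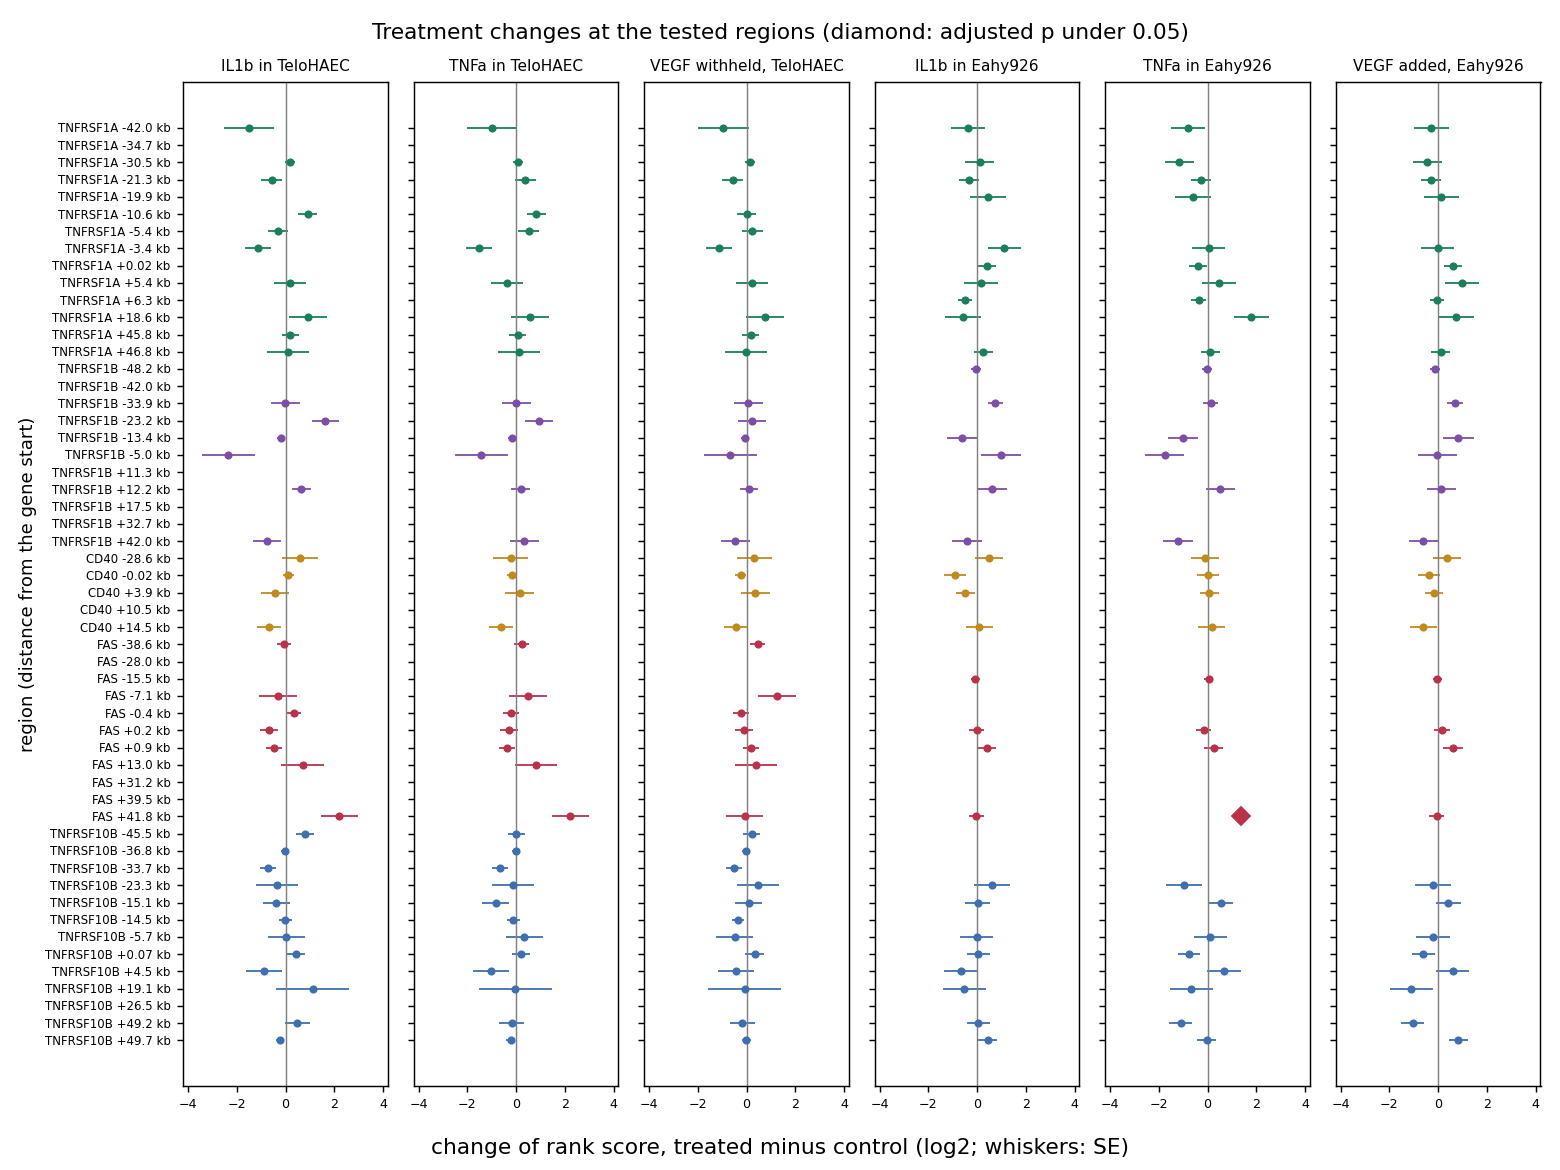
Change of rank score (log2, treated minus day 1 control, whiskers SE) of the tested regions in the 6 treatment comparisons, coloured by locus. The diamond, FAS 41.8 kb downstream with TNFa in Eahy926, is the region with an adjusted p under 0.05; the same region is at 2.20 and 2.23 with IL1b and TNFa in TeloHAEC.

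Other genes of the pathway were taken from a list of 26 ligands, receptors, adaptors, kinases, caspases and inhibitors, each with 50 kb on both sides of its start. Between the untreated lines 22 of 148 tested regions were higher and 22 lower in TeloHAEC, where 19.6% and 18.1% of all regions tested were. The largest change was at the start of TNFRSF21, another death receptor (2.87 ± 0.35, adjusted p = 1.16e-05). With IL1b in TeloHAEC 1 of 138 rose, 20.2 kb from the start of NFKBIA, the NF-kB inhibitor (4.43 ± 0.95, adjusted p = 0.0342), where 0.319% of all regions tested rose. With TNFa in Eahy926 4 of 143 rose and 0 fell, where 0.252% and 0.0141% of all regions tested did. They lay near FADD, the death domain adaptor (43.3 kb from its start, 2.41 ± 0.47, adjusted p = 0.0161), at the start of BIRC3, an apoptosis inhibitor (1.62 ± 0.33, adjusted p = 0.0206), near TNFRSF12A (1.37 ± 0.31, adjusted p = 0.0474) and near TRAF2. Strong peaks lay in 3 TNFa libraries and 1 control at the FADD and BIRC3 regions, and in 3 and 0 at that near TNFRSF12A. These regions could thus enter the test largely through the TNFa libraries, where they were high. How these calls depend on the filter and on single libraries is not reported here. TNFa in TeloHAEC, IL1b in Eahy926 and both VEGF comparisons gave 0 in this list. IL1b minus TNFa in Eahy926 uses the same TNFa libraries. It had 5 of 143 lower and 0 higher, where 0.316% of all regions tested were called. More regions were called between the preparation days of untreated cells. In Eahy926 12 of 116 were higher and 12 lower on day 1, where 8.12% and 9.47% of all regions tested were. In TeloHAEC 2 of 126 were higher and 11 lower, where 4.98% and 6.59% were.

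Over the 10 group means the start regions of the receptors were set beside those of 22 pathway genes. CD40 was most like NFKBIA (Pearson r = 0.94), then CHUK (0.81) and TRADD (0.76). TNFRSF10B was most like TRADD (0.90) and BIRC2 (0.81). TNFRSF1A reached 0.63 with CFLAR, and FAS 0.54 with MAP3K5. These values describe 10 group means that share line and preparation day.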

How the data were processed

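Tn5 libraries of 30 samples were compared. Per the submitters' processing notes, the authors aligned reads to hg19 with Bowtie2 and called peaks with MACS2, version 2.1.1.20160309 per the file headers, for each library separately, with no control and a p threshold of 0.001. The deposited tables give each summit's pileup (coverage signal), p-value and q-value as −log10, and fold enrichment (a ratio to local background), and no counts. Only ranks within a list were used, except in an alternative with pileup scaled to kept tags. Kept tags, per the file headers, were 3577273 to 11404955 per library and limit the precision.

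Summits of 1 peak were merged, the 22 autosomes kept, lists shortened to 49774 peaks ordered by p, and regions of 501 bp built around the 45000 strongest. Region and peak were matched at an overlap of 50% of the shorter. Regions with a strong peak in at least 3 libraries of a fit were tested by limma 3.58.1 (R 4.3.3, variance trend, two-sided), all regions together. Adjusted p (Benjamini-Hochberg) under 0.05 was called. Lines were compared in 12 untreated libraries with day as a term, treatments in the 12 day 1 libraries of a line, and line by treatment in 24. Python 3.11.15, numpy 2.4.6, pandas 2.3.3 and matplotlib 3.10.9 handled the lists. Scripts were tested on simulated data. Alternatives changed the list order, the score, the overlap, the list length, the filter, the window, the samples and the block.

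The receptors, gene lists and tests were chosen with earlier results of these data known. Gene starts and spans in hg19 were written from general knowledge; the RefSeq table at hand is on another build, and 10 of 13 gene lengths were within 5% of it. Named regions were, per locus, that at the start, that with the best mean place, up to 4 called per comparison, or otherwise the one with the smallest p. TNFRSF1A 6.3 and 45.8 kb downstream complete the calls between the lines at that locus and were named after their values were seen. Pathway genes named were up to 3 with the largest called change per comparison; TRAF2 completes a count of 4 and was named after its values were seen.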

Additional observations from a re-analysis of the deposited data

How the results depend on the processing

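Rank scores show order within a library, not amounts, and 3 libraries a group limit the tests. Of 403 alternative values for the 18 region results called, 344 kept the call and 59 kept the direction without it; none changed sign. For the lines, leaving out the 3 libraries with the fewest kept tags removed no untreated library, so it repeated the main fit and counts as kept. Alternatives in which a region was not tested are not counted, so the line regions had 20 to 24 each. Between the lines 9 regions were called within 25 kb, 8 with the 30000 strongest peaks and 9 on day 1 alone, against 16, and leaving out 1 library gave 14 to 17. With TNFa in Eahy926 and for IL1b minus TNFa there, the count of 1 became 0 within 25 kb (the window no longer holds the region), with the order by fold enrichment, normal scores, pileup scaled to kept tags, an overlap of 80%, the 30000 strongest peaks, no filter, only the groups compared, or without the 3 libraries with the fewest kept tags; leaving out 1 library gave 0 to 1. The cause was not tested.

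Samples with the same replicate number shared only a number: their deviations from group means had a median correlation of -0.006 (TeloHAEC) and -0.003 (Eahy926), with 0 of 18 pairs per line over 0.1. With a replicate block the TNFa count in Eahy926 was 0 (adjusted p = 0.0513), that of the lines 16, that of IL1b minus TNFa 1, and the day counts 7 in Eahy926 and 2 in TeloHAEC; the other comparisons stayed at 0.

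For the preparation day in TeloHAEC the count of 2 became 1 within 25 kb, by fold enrichment, normal scores or an overlap of 80%, and 0 with the 30000 strongest peaks or no filter; leaving out 1 library gave 0 to 1. In Eahy926 the count of 8 became 5 within 25 kb, 4 by fold enrichment or an overlap of 80%, and 1 with no filter; leaving out 1 library gave 1 to 9.

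Peaks per locus, TeloHAEC minus Eahy926, changed as follows. TNFRSF1A gave -1.5 within 25 kb (adjusted p = 0.075, exact permutation) and 1.83 over the whole deposited list, an alternative chosen after seeing the data; leaving out 1 library gave -1.83 to -1.43. TNFRSF1B gave -0.5 with the 30000 strongest peaks, and 0.93 to 1.73 without 1 library. FAS gave 1.33 by fold enrichment (adjusted p = 0.163, exact permutation), 1.5 within 25 kb and 2.67 over the whole list (adjusted p = 0.1, exact permutation), and 1.87 to 2.47 without 1 library; without Eahy926 day 0 replicate 1 or 3 the adjusted p at FAS and TNFRSF1A was 0.05 (exact permutation). TNFRSF10B gave -0.17 with the 30000 strongest peaks and within 25 kb.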

Other observations

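Some regions were seen rarely. FAS 28.0 kb upstream and 31.2 kb downstream had a strong peak in 1 of 15 TeloHAEC libraries each and in 0 of 15 of Eahy926. TNFRSF10B 26.5 kb downstream, inside the gene, had one in 1 of 15 Eahy926 libraries and in 0 of 15 of TeloHAEC, and TNFRSF1B 17.5 kb downstream, inside the gene, in 2 and 0. TNFRSF10B 36.8 kb upstream, inside the decoy receptor gene TNFRSF10C, had a strong peak in 5 of 15 TeloHAEC libraries and 0 of 15 of Eahy926. Listed peaks of any strength were there in 14 and 0. CD40 10.5 kb downstream had one in 3 Eahy926 and 0 TeloHAEC libraries.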
